A study of Mus musculus with 12 samples.

Results

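The comparison described here sets 3 arrays of mice given mephedrone together with ethanol against 3 arrays of mice given saline, which is 6 of the 12 arrays of the series. The arrays were chosen by the source label alone. All 12 hold total RNA of the anterior striata of adolescent male mice of the Swiss CD-1 stock, an outbred stock, hybridised to Affymetrix whole-transcript arrays. The mice went through a 10-day conditioned place preference procedure, with each drug given 15 minutes before the animal entered the compartment paired with it. The group given both drugs is called the combination below. The other 2 groups of 3 arrays received ethanol or mephedrone alone and enter the fit and the side-by-side values. Doses, the hour of tissue collection and the interval since the last dose are not given in the sources used here. The labels do not say that the arrays of a group came from separate animals, so every p-value below is set against a spread between arrays that may be technical only.

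The anterior striatum receives dense dopamine input and is a main site at which rewarding drugs act. Mephedrone is a synthetic cathinone that raises extracellular dopamine and serotonin through their transporters, and ethanol is a depressant that acts on several ion channels. In the circadian clock, the activators BMAL1 (encoded by Arntl) and CLOCK drive repressors of the Period, Cryptochrome and REV-ERB families, which in turn shut the activators off, and the loop also runs in striatal neurons. Neuronal firing induces immediate early genes such as Npas4, Arc and the Egr family within minutes.

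The table holds 28853 probe sets, of which 21789 carry a single gene symbol, and these symbols name 19938 genes. Every value is a log2 difference from the median of the probe set across all 12 arrays. It places an array among the 12 and is not a level, so markers could not be used to check that the tissue is striatal. The 6 arrays compared differed in their cell type markers. In combination replicate 3 the mean of 14 choroid plexus markers was 1.83, that of 11 cortical excitatory neuron markers was 0.76, that of 14 oligodendrocyte markers was 0.55 and that of 12 markers of striatal projection neurons was -0.33. The choroid plexus mean was 1.03 in saline replicate 2 and 0.55 in combination replicate 2, while the other 3 lay at -0.060, -0.105 and -0.046. The cortical mean ranged from -0.37 to 0.39 among the saline arrays. The SD over all probe sets was 0.169 in combination replicate 3 and between 0.071 and 0.102 in the other 5. Because these are bulk samples, fewer cells of a type and less RNA per cell cannot be told apart. An alternative fit below, named composition covariates, includes the choroid plexus and cortical means of each array. Beyond that fit, the part of these differences in the results was not tested. Values without combination replicate 3 are given where they move a result.

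Across the 28853 probe sets 1 passed the test (0.00347%), a probe set of Ciart, which was higher with the combination. The test is limma's moderated test with Benjamini-Hochberg adjustment over all probe sets and a threshold of 0.05. With 1 value per gene, the mean of its probe sets, 2 of 19938 genes passed (0.01%), Ciart and Cmc1, both higher. At an unadjusted p under 0.05 there were 2153 higher probe sets (7.46%) and 1697 lower (5.88%). Counted by gene, 1771 were higher (8.88%) and 650 lower (3.26%). The groups did not overlap in 5215 probe sets (18.1%), with the combination higher in 2914 (10.1%) and lower in 2301 (7.97%), and in 17.4% of genes (11.7% higher and 5.77% lower). Without combination replicate 3 the shares of genes at an unadjusted p under 0.05 were 7.11% higher and 2.35% lower (of probe sets, 6.24% and 3.93%), and without saline replicate 2 they were 7.37% and 3.3%. These shares are the background for the counts within lists. Differences were small. Over all genes the median was 0.012, 57.0% lay above 0, and the 5th and 95th percentiles were -0.109 and 0.179, while 15 genes differed by 1.5-fold or more. When the p-values were adjusted over the 21789 probe sets with a single symbol alone, 11 passed, 7 of them higher and 4 lower. The 7 belong to Ciart, Cmc1, Rbm3 (with 2 probe sets), Nfu1, Pex7 and Dld. The 4 lower ones share 1 symbol, that of a Rik transcript.

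Ciart, a repressor of the BMAL1 and CLOCK pair, was the gene with the smallest p. Its values were -0.20, -0.29 and -0.42 in the 3 saline arrays and 0.56, 0.52 and 0.67 in the 3 combination arrays. Each combination array lay above each saline array by more than the range of either group. The rise was 0.89 in log2 (SE 0.085, 1.85-fold, adjusted p = 0.0123, limma). A second probe set of the symbol differed by 0.76 (SE 0.121, adjusted p = 0.0763), and the mean of both rose by 0.82 (SE 0.084, 1.77-fold, adjusted p = 0.0130 over genes). Probe sets that share a symbol may share copies of a gene and are not independent measurements. The call of the first probe set ended without combination replicate 1 (adjusted p = 0.0820), combination replicate 3 (0.0810) or saline replicate 2 (0.0568), with changes of 0.90, 0.84 and 0.89. The call over genes ended without combination replicate 1 (0.114), 2 (0.128) or 3 (0.0544) or saline replicate 1 (0.0852), and with quantile normalisation (0.145), composition covariates (0.0609) or the 6 arrays alone (0.216).

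Cmc1, a mitochondrial protein that helps to assemble cytochrome c oxidase, was -0.27, -0.15 and -0.15 with saline and 0.15, 0.21 and 0.14 with the combination. The 2 groups lay on either side of 0 without overlap. As a gene it rose by 0.35 (SE 0.043, 1.28-fold, adjusted p = 0.0355), and its only probe set missed the threshold over all probe sets (adjusted p = 0.0551). The call over genes was kept without saline replicate 3 (adjusted p = 0.0419) and ended without each of the other 5 arrays of the comparison in turn, with adjusted p-values from 0.115 without combination replicate 3 to 0.182 without combination replicate 2. It also ended with composition covariates (0.10), quantile normalisation (0.145) and the 6 arrays alone (0.216).

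RefSeq promoters, from 250 bases before to 50 after the annotated start in GRCm38.p6, are shown for the 2 genes that passed and for Per3 and Arntl, clock genes whose promoters hold the other clock motifs searched. Capitals mark the E-box CACGTG in Ciart and Cmc1, the D-box TTATGTAA in Per3 and the core ROR element TAGGTCA in Arntl, each searched on both strands.
Ciart (chr3:95882179-95882478, minus strand): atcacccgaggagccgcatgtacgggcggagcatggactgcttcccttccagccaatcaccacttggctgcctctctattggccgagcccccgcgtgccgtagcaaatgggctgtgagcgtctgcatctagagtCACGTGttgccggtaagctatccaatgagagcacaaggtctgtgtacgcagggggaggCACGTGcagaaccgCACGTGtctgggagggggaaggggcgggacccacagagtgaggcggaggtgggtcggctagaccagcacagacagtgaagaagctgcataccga
Cmc1 (chr9:118150147-118150446, minus strand): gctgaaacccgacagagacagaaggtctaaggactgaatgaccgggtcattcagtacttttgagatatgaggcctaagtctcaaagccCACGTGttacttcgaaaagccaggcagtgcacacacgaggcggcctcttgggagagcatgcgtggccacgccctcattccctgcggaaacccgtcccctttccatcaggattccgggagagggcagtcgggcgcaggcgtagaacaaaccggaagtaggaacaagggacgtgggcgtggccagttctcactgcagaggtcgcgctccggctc
Per3 (chr4:151044616-151044915, minus strand): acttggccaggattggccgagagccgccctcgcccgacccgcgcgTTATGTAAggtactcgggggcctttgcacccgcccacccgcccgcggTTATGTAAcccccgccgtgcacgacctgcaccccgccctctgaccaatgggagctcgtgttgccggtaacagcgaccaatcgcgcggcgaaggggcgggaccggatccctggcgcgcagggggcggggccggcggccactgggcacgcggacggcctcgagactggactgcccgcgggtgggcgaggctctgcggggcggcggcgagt
Arntl (chr7:113207261-113207560, plus strand): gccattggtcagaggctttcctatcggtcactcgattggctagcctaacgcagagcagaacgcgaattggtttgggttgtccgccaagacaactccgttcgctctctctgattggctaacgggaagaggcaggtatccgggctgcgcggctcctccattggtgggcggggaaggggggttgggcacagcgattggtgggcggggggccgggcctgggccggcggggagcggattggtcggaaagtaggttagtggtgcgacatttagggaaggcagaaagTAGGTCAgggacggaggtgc
The E-box, the letters bound by BMAL1 and CLOCK, stands in 7.15% of the 32851 mouse promoters of the table, the D-box in 0.938% and the ROR core in 2.61%. Ciart holds 3 E-boxes in this window and Cmc1 holds 1. Of the 10 genes named as higher that have a promoter in the table, only these 2 hold an E-box. Among the 11 such genes named as lower, 1 does (Thrb). Of the 18 clock genes below that have a promoter in the table, 5 hold an E-box (Ciart, Per1, Cry1, Bhlhe41 and Tef), 1 a D-box and 2 a ROR core (Arntl, in 1 of its 2 promoters, and Nfil3). The percentages count promoters, while the counts of clock genes take a match in any promoter of a gene, so the units differ. These matches are a description and no evidence of binding.

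By the ranking rule, 11 further genes were named as higher with the combination, none of which passed over all probe sets. Their differences ran from 0.31 to 0.68 with adjusted p-values between 0.0551 and 0.0915, and by that rule their groups do not overlap. Rbm3, an RNA-binding protein induced by mild cold, differed by 0.52 on 1 probe set and by 0.49 and 0.46 on the other 2 (adjusted p = 0.0593, 0.0593 and 0.0660). Several named genes encode mitochondrial proteins. Nfu1, which delivers iron-sulphur clusters, was -0.52, -0.51 and -0.54 with saline and 0.43, 0.064 and -0.0070 with the combination. That is the largest spread among combination arrays in this set, and a second Nfu1 probe set differed by only 0.15 (adjusted p = 0.464). Sdhaf4, which helps to assemble succinate dehydrogenase, differed by 0.50 on 1 probe set and by 0.065 on another (adjusted p = 0.0872 and 0.744). Dld, a subunit shared by mitochondrial dehydrogenase complexes, differed by 0.33 (SE 0.047), and Coq3, a methyltransferase needed to make ubiquinone, by 0.33 (SE 0.057). The others were Pex7, a peroxisomal import receptor (0.31), Kpna2, a nuclear import receptor (0.35, and 0.28 and 0.31 on its other probe sets), Tmbim4, a membrane protein that counters cell death (0.35), Zfp566, a zinc finger protein (0.485), and Hhipl1, a relative of a hedgehog-binding protein (0.37).

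Among lower genes none passed, and the 12 named had differences from -0.95 to -0.31 and adjusted p-values between 0.0660 and 0.147. By the ranking rule their groups do not overlap. Arntl, which encodes BMAL1, was 0.35, 0.084 and 0.14 with saline and -0.23, -0.24 and -0.33 with the combination. The 3 combination values lay close together and below each saline value, with a difference of -0.46 (SE 0.070, adjusted p = 0.0660). Cldn5, which seals the tight junctions of the blood-brain barrier, was 0.18, 0.0069 and 0.12 with saline and -0.21, -0.35 and -0.30 with the combination. Its difference was -0.39 (SE 0.062, adjusted p = 0.0763). Npas4, a transcription factor induced by neuronal activity, was 0.52, -0.0087 and 0.18 with saline and -0.62, -0.51 and -1.01 with the combination. All 3 combination arrays were below all 3 saline arrays, as that rule requires. The spread within both groups was wide, and the difference of -0.95 (SE 0.220) did not pass (adjusted p = 0.121). Egr3, a second activity-induced factor, differed by -0.32 (SE 0.070, adjusted p = 0.114).

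The other lower genes included Ago4, an Argonaute protein of small RNA silencing (-0.42), Thrb, the thyroid hormone receptor beta (-0.31), Plk5, a polo-like kinase (-0.31), Eml5, a microtubule-associated protein (-0.31 and -0.15 on 2 probe sets), and Fxyd5, a regulator of the sodium pump (-0.36). Wnt2, a secreted ligand, differed by -0.40 and Oscar, an immunoglobulin-like receptor, by -0.41. Srsy, a multi-copy gene of chromosome Y with 19 probe sets, differed by -0.66 on the probe set named and by -0.96 to -0.48 on the other 18. Its values were 0.021, 0.60 and 0.33 with saline and -0.56, 0.0075 and -0.48 with the combination, so that combination replicate 2 lay beside saline replicate 1. Near-identical copies share its probes, so its value is uncertain.

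**Figure D1:**
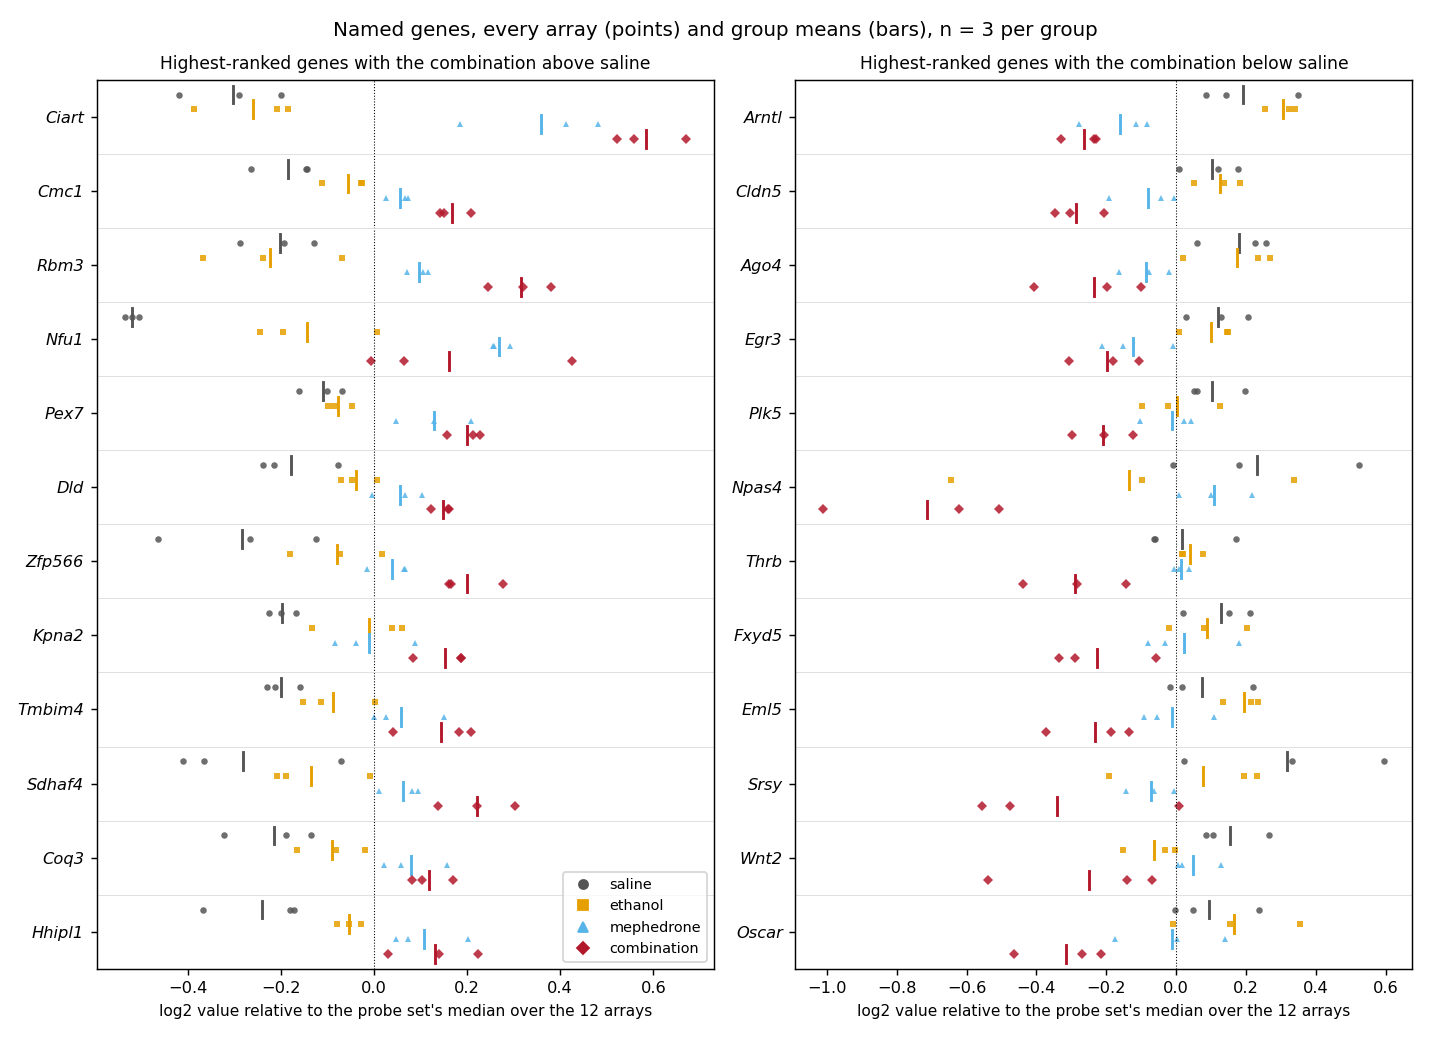
Log2 value relative to the probe set's median over the 12 arrays (horizontal axis) for the 12 genes named as higher (left) and the 12 named as lower (right), with 3 arrays per group as points and the group mean as a bar. Combination and saline points do not overlap for any gene, as the rule requires. The mephedrone points of the genes on the left mostly lie between them, a position that the choice of genes by the combination favours.

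The same genes were set beside each drug given alone. These comparisons share the saline arrays, so their values are given side by side and no agreement between them is counted as a result. The genes were also chosen by the combination against saline, which by itself tends to make that difference the largest. The order of the medians below is therefore no result about adding 1 drug to the other. Among the 12 named as higher, the median difference from saline was 0.135 for ethanol, 0.30 for mephedrone and 0.36 for both drugs together. For the 12 named as lower the medians were -0.013, -0.12 and -0.40. Ciart differed from saline by 0.044 with ethanol and 0.66 with mephedrone, Rbm3 by -0.021 and 0.30, and Arntl by 0.11 and -0.35. Npas4 differed by -0.37 with ethanol and -0.12 with mephedrone, and Thrb by 0.022 and -0.0038. Ethanol against saline and mephedrone against saline each called 0 probe sets, and 1440 (4.99%) and 2154 (7.47%) had an unadjusted p under 0.05 (limma).

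Against ethanol alone, the combination called 10 of 28853 probe sets (0.0347%), 7 higher (0.0243%) and 3 lower (0.0104%), and 2939 had an unadjusted p under 0.05 (10.2%). Of the named genes, Ciart rose by 0.84 (SE 0.085, adjusted p = 0.0206) and by 0.90 on its second probe set (adjusted p = 0.0459). The 3 probe sets of Rbm3 rose by 0.54, 0.50 and 0.51, and Arntl fell by 0.57 (SE 0.070), each with an adjusted p of 0.0459. No probe set was called in this comparison without any 1 of the 3 combination arrays. Without combination replicate 1 the adjusted p was 0.132 for Rbm3, Arntl and the first Ciart probe set and 0.188 for the second, without replicate 2 it was 0.105 to 0.109, and without replicate 3 it was 0.0916 to 0.143. Without saline replicate 2 or saline replicate 3 the 3 Rbm3 probe sets also missed the threshold (adjusted p of 0.0732 to 0.0889 and 0.0861 to 0.107), as did Arntl without saline replicate 3 (0.0861), and the second Ciart probe set missed it without saline replicate 1 (0.0529). Against mephedrone alone, 0 probe sets were called and 1062 had an unadjusted p under 0.05 (3.68%). For the 24 named genes that difference lay between -0.11 and 0.22 in those higher and between -0.82 (Npas4) and -0.074 in those lower, with adjusted p-values of 0.988 or more. The interaction, which asks whether the combination differs from the sum of both single-drug differences, called 0 probe sets and 991 had an unadjusted p under 0.05 (3.43%). Among the named genes it lay between -0.48 and 0.24, with adjusted p-values of 1.0.

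The circadian clock list held 21 measured genes, and 1 of them, Ciart, passed over all genes. In all 17 lay above 0, with a median of 0.11 beside 0.012 over all genes. At an unadjusted p under 0.05 there were 10 higher and 1 lower, or 47.6% and 4.76% beside 8.88% and 3.26% over all genes, and 9 and 1 without combination replicate 3. Of the 4 activators, Arntl was the only 1 with an unadjusted p under 0.05. Clock and Rora differed by -0.031 and -0.029. Rorb differed by 0.17 with all arrays and by 0.010 without combination replicate 3, where it was 0.48.

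Among the 11 repressors 6 were higher at that p. Bhlhe40 and Bhlhe41, both repressors that bind E-boxes, differed by 0.46 (SE 0.102, adjusted p = 0.137) and 0.42 (SE 0.10, adjusted p = 0.153). Bhlhe41 was 0.018, -0.33 and -0.33 with saline and 0.25, 0.23 and 0.14 with the combination, so saline replicate 1 lay closest to the treated arrays. Nr1d1 and Nr1d2, which encode the REV-ERB repressors of Arntl, differed by 0.29 (SE 0.063, adjusted p = 0.125) and 0.27 (SE 0.054, adjusted p = 0.118). Nr1d1 was -0.12, 0.035 and -0.24 with saline and 0.20, 0.13 and 0.22 with the combination, again without overlap. Per3 differed by 0.26 (SE 0.062, adjusted p = 0.154). Per1 and Per2, the Period genes that also respond to acute stimuli, overlapped between groups and differed by 0.092 (adjusted p = 0.793) and 0.17 (adjusted p = 0.658). Per2 was 0.16, -0.32 and -0.37 with saline and 0.11, 0.070 and -0.22 with the combination, a wider spread within each group than the difference between them. Cry1, Cry2 and Nfil3 lay between -0.0038 and 0.028.

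All 6 outputs and regulators lay above 0. Dbp, a transcription factor driven by the clock, was -0.20, -0.089 and -0.17 with saline and 0.22, 0.15 and 0.093 with the combination. It differed by 0.31 (SE 0.063, adjusted p = 0.118), and its relatives Hlf and Tef by 0.11 and 0.078. Usp2, a deubiquitinase with a daily rhythm, differed by 0.17, and the clock kinase genes Csnk1e and Csnk1d by 0.083 and 0.029. The mean of the 21 genes was -0.025, -0.063 and -0.16 in the saline arrays and 0.077, 0.067 and 0.078 in the combination arrays.

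**Figure D2:**
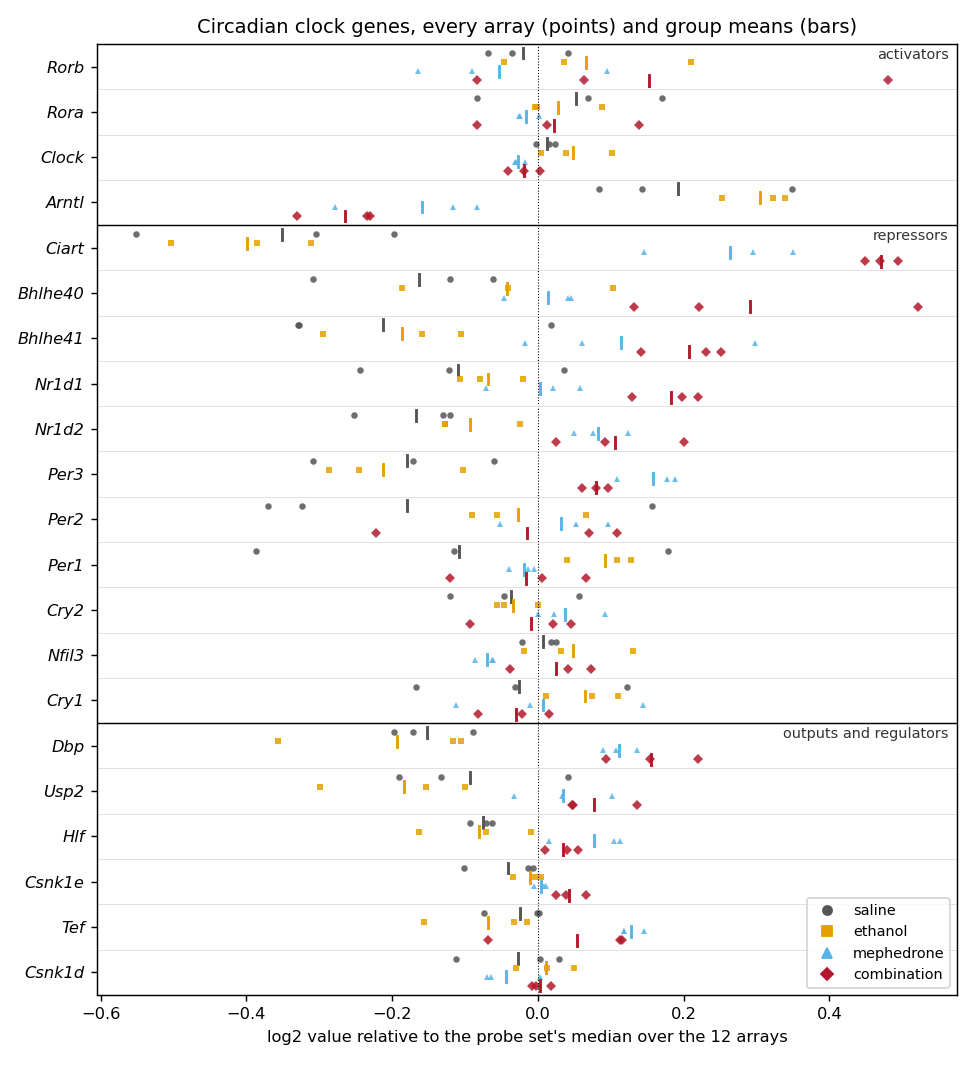
Log2 value relative to the median over the 12 arrays (horizontal axis) for the 21 measured clock genes, grouped as activators, repressors and outputs, with 3 arrays per group as points and group means as bars. Combination points of Ciart lie between 0.45 and 0.49 and its saline points between -0.55 and -0.20, while Per1, Per2 and both Cryptochrome genes overlap between groups.

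The 3 measured cold-inducible genes lay above 0, with 0 called over all genes. Rbm3 averaged over its probe sets differed by 0.49 (SE 0.069, adjusted p = 0.0692). It was -0.28, -0.13 and -0.19 with saline and 0.22, 0.30 and 0.36 with the combination. Cirbp, the other main cold-shock RNA-binding protein, was -0.30, -0.00091 and -0.080 with saline and 0.25, 0.14 and 0.11 with the combination. Neither gene overlapped between groups, and Cirbp differed by 0.30 (SE 0.077, adjusted p = 0.183). Srsf5, a splicing factor, differed by 0.077 (adjusted p = 0.755).

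Of 47 immediate early genes 28 lay below 0, with a median of -0.049, and 0 passed. There were 2 higher (4.26%) and 9 lower (19.1%) at an unadjusted p under 0.05, beside 8.88% and 3.26% over all genes. The list mean was 0.169 in saline replicate 1 and -0.079 and -0.019 in the other saline arrays, and between -0.066 and -0.048 in the combination arrays, so the combination lay within the range of saline. Without saline replicate 1 the counts were 4 higher and 3 lower and the median was -0.0042, and without saline replicate 2 they were 1 and 13 with a median of -0.097. Arc, a regulator of synaptic strength, was 0.71, -0.12 and 0.18 with saline and -0.38, -0.27 and -0.11 with the combination. Nr4a1 was 0.83, -0.072 and 0.072 with saline and -0.15, -0.11 and -0.66 with the combination. In both genes the highest saline value was replicate 1.

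Nr4a2, a nuclear receptor, was -0.77, 0.0019 and -0.086 with saline and 0.072, 0.38 and 1.63 with the combination. Its difference was 0.98 with all arrays (SE 0.383, adjusted p = 0.337) and 0.51 without combination replicate 3. Egr2 was 0.89 in saline replicate 1 and -0.017 and 0.0038 in the other 2, against -0.0038, -0.0072 and -0.42 with the combination. Egr1, Fosl2, Vgf and Dusp1, the last a phosphatase that ends MAP kinase signalling, differed by -0.24, -0.33, -0.29 and -0.28, with adjusted p-values between 0.323 and 0.410. By role, 5 of 21 transcription factors were lower and 2 higher at an unadjusted p under 0.05, and 3 of 16 effectors and 1 of 10 ERK feedback genes were lower and 0 higher. Without combination replicate 3 the lower counts were 3, 2 and 1, and the higher counts were 0, 1 and 0.

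The series title names D3 receptors. Drd3 was -0.054, -0.39 and -0.59 with saline and -0.00062, 0.00062 and -1.05 with the combination. Each group had 1 or more arrays far below the rest, and the difference was -0.0057 (SE 0.255, adjusted p = 0.995). Without combination replicate 3 it was 0.34, and without saline replicate 1 it was 0.14. Drd2 was 0.108, 0.038 and 0.012 with saline and -0.031, -0.013 and -0.42 with the combination, a difference of -0.21 (SE 0.108, adjusted p = 0.475) that was -0.075 without combination replicate 3. Drd1, Drd4 and Drd5 differed by -0.081, -0.021 and -0.034, with adjusted p-values of 0.827 or more. Of the 17 genes that carry the dopamine signal inside the cell 14 lay below 0, with 0 at an unadjusted p under 0.05 in either direction. Over the 22 genes of the dopamine list the count of lower genes was 6 without combination replicate 1, 7 without combination replicate 2 and 0 without combination replicate 3. Ppp1r1b (DARPP-32), Adcy5 (the striatal adenylyl cyclase) and Pde10a (a phosphodiesterase of projection neurons) differed by -0.14, -0.15 and -0.125. Each was lowest in combination replicate 3, at -0.26, -0.31 and -0.27, and without it the differences were -0.058, -0.049 and -0.051.

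Genes of mitochondrial cofactors and assembly lay mostly above 0. Of 22 genes 20 were above 0 with a median of 0.105, and 0 passed. At an unadjusted p under 0.05, 9 were higher and 0 lower (40.9% and 0%, beside 8.88% and 3.26% over all genes). Without combination replicate 3 the counts were 9 and 1. Beside Nfu1, Sdhaf4 and Coq3, Lias, which makes lipoic acid, differed by 0.26 (SE 0.061, adjusted p = 0.143). Ndufaf1, an assembly factor of complex I, differed by 0.24 (SE 0.059, adjusted p = 0.159). The list mean was -0.078, -0.102 and -0.063 in the saline arrays and 0.057, 0.018 and 0.073 in the combination arrays.

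Among 35 subunits of the respiratory chain 26 were above 0, with a median of 0.077 and 0 called. At an unadjusted p under 0.05, 14 of the 35 were higher and 0 lower, beside 8.88% and 3.26% over all genes. Without combination replicate 3 the counts were 11 and 0, beside 7.11% and 2.35% over all genes. They were 5 and 0 when saline replicate 2 was left out as well. Ndufs1, the largest subunit of complex I, was -0.12, -0.10 and -0.0066 with saline and 0.22, 0.21 and 0.23 with the combination. It differed by 0.29 (SE 0.045, adjusted p = 0.0692), and Sdhd, a membrane anchor of complex II, by 0.30 (SE 0.068, adjusted p = 0.143). Uqcrc2, a core protein of complex III, differed by 0.16 (SE 0.036, adjusted p = 0.139). Sod2, the superoxide dismutase of mitochondria, differed by 0.18 (SE 0.037, adjusted p = 0.118).

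Glucocorticoid-responsive and sterol genes also lay above 0, to an extent set in part by 1 array. Of 15 glucocorticoid-responsive genes 14 were above 0 (median 0.092) and 6 were higher at an unadjusted p under 0.05, or 3 without combination replicate 3. Tsc22d3, a glucocorticoid-induced leucine zipper gene, was -0.13, -0.11 and -0.21 with saline and 0.19, 0.048 and 0.37 with the combination. Its difference was 0.35 (SE 0.084, adjusted p = 0.151). Nfkbia, the inhibitor of NF-kappaB, and Sgk1, a kinase induced by steroids, differed by 0.30 and 0.38, or by 0.24 and 0.20 without combination replicate 3. Of 18 sterol synthesis genes 17 were above 0 (median 0.15) and 7 were higher at that p (38.9%, beside 8.88% over all genes). The count was 3 with a median of 0.064 without combination replicate 3, and 4 without saline replicate 1. Sqle, Nsdhl and Fdft1, enzymes between farnesyl diphosphate and cholesterol, differed by 0.32, 0.23 and 0.26, with adjusted p-values between 0.153 and 0.264. Each was highest in combination replicate 3.

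Genes of drug metabolism and transmitter supply gave 0 calls over all genes. All 13 genes of alcohol and acetate metabolism lay above 0 with a median of 0.055. At an unadjusted p under 0.05, 2 were higher (15.4%, beside 8.88% over all genes). Without combination replicate 3, where the list mean was 0.215 against 0.027 and 0.019 in the other combination arrays, 9 lay above 0 with a median of 0.019, and without combination replicate 2 the higher count was 4 with a median of 0.115. Aldh1a1, an aldehyde dehydrogenase, was -0.022, -0.18 and -0.15 with saline and 0.31, 0.072 and 0.84 with the combination, a difference of 0.52 (SE 0.162, adjusted p = 0.254) that was 0.31 without combination replicate 3. Aldh1b1, its mitochondrial relative, differed by 0.19 (SE 0.057, adjusted p = 0.241). Among 11 genes of monoamine synthesis and transport, Maoa, which degrades serotonin and dopamine, and Ddc, which makes both, differed by 0.23 and 0.30 (adjusted p = 0.183 and 0.222). The transporters that mephedrone acts on, Slc6a3 and Slc6a4, differed by 0.024 and 0.0094 (adjusted p = 0.923 and 0.958). Of 8 opioid genes 4 lay above 0 and 4 below, with a median of 0.038. At an unadjusted p under 0.05, 2 of the 8 were higher and 0 lower, beside 8.88% and 3.26% over all genes. The higher count was 0 without saline replicate 2, saline replicate 3 or combination replicate 1. It stayed at 2 without saline replicate 1 or combination replicate 3. Without combination replicate 2 it was 1 and the median was -0.0215. Oprl1, the nociceptin receptor, and Pdyn, the dynorphin precursor, differed by 0.23 and 0.19 (adjusted p = 0.359 and 0.385). In the thyroid list Trhr2, a receptor for thyrotropin-releasing hormone, differed by 0.33 (SE 0.062, adjusted p = 0.111), Thrb by -0.31 and Dio2, the enzyme that activates thyroid hormone, by -0.24 (SE 0.064, adjusted p = 0.199).

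Of 12 endothelial genes 9 lay below 0 with a median of -0.092. At an unadjusted p under 0.05, 4 were lower (33.3%) and 1 higher (8.33%), beside 3.26% and 8.88% over all genes. Besides Cldn5, Flt1, a receptor for vascular growth factor, differed by -0.17 and Tek, the angiopoietin receptor, by -0.11 (adjusted p = 0.214 and 0.285). Slc2a1, the glucose transporter of the barrier, was the higher 1, at 0.18. Pecam1 and Cdh5, which mark endothelial cells in general, differed by -0.061 and -0.11 (adjusted p = 0.656 and 0.435). Of 22 cytosolic ribosomal protein genes 18 lay below 0 (median -0.069), with 6 lower (27.3%) and 2 higher (9.09%, near the share over all genes) at that p. The counts were 2 and 0 without saline replicate 1, and 3 and 1 without combination replicate 2. Rpl24, Rpl13 and Rps14 differed by -0.16, -0.14 and -0.17. C4b, a complement component, differed by 0.20 (SE 0.048, adjusted p = 0.162), while 10 of 13 microglial markers lay below 0 with a median of -0.032. That direction turned without saline replicate 1 (7 of 13 above 0, median 0.031) and without combination replicate 2 (7 of 13, median 0.018).

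**Figure D3:**
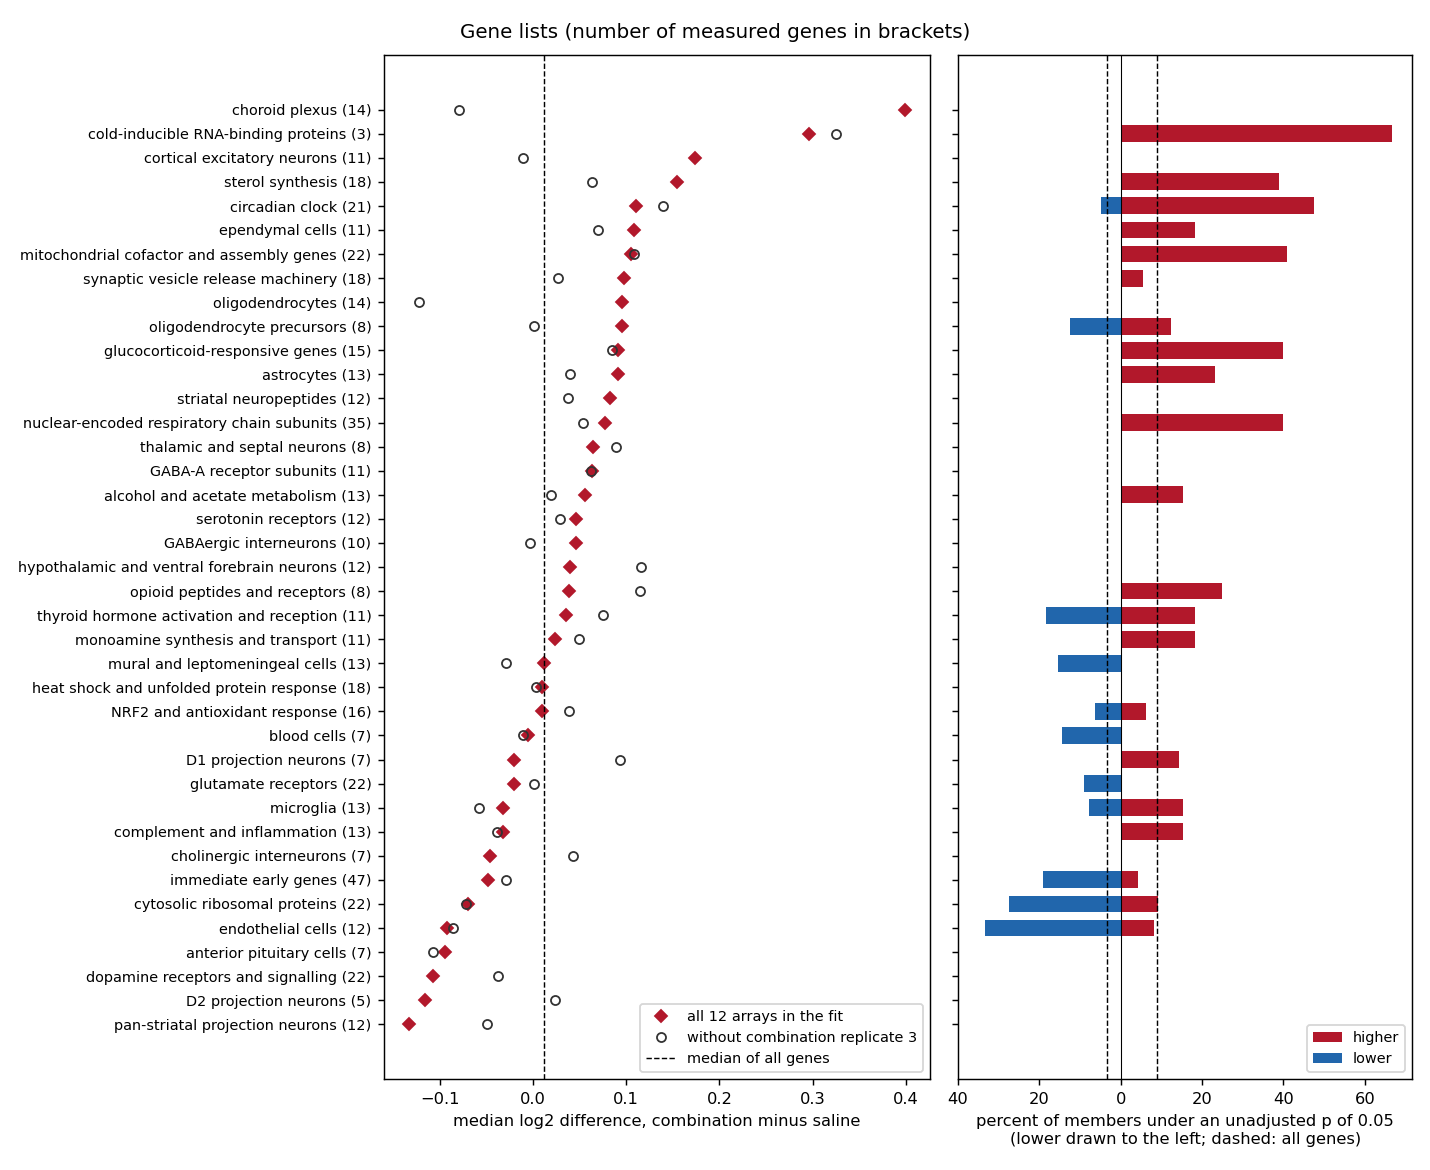
Left, median log2 difference, combination minus saline, of each of 39 gene lists with all arrays (filled) and without combination replicate 3 (open), with the median of all genes as a dashed line. Right, percent of members at an unadjusted p under 0.05, higher to the right and lower to the left, with the shares over all genes dashed. The choroid plexus median moves from 0.40 to -0.080 and that of cortical neurons from 0.17 to -0.011 without that array, while the clock median moves from 0.11 to 0.14.

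Among the marker lists, those of choroid plexus, cortical neurons and oligodendrocytes had medians of 0.40, 0.17 and 0.096, and of -0.080, -0.011 and -0.12 without combination replicate 3. The pan-striatal list had 12 of 12 markers below 0 with a median of -0.13, or -0.050 without that array, and 0 markers at an unadjusted p under 0.05, but 5 lower without combination replicate 1 and 6 without combination replicate 2. For the D1 and D2 projection neuron lists the medians of -0.020 and -0.12 became 0.094 and 0.024 without it. Astrocyte markers had 3 of 13 higher at that p (23.1%, beside 8.88% over all genes), or 0 without it and 1 to 5 without each of the other arrays that moved the count. Gfap differed by 0.47 with all arrays and by 0.18 without combination replicate 3. Of 11 ependymal genes Rsph1, a protein of motile cilia, differed by 0.34 (SE 0.078, adjusted p = 0.145), and by 0.33 without it.

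**Figure D4:**
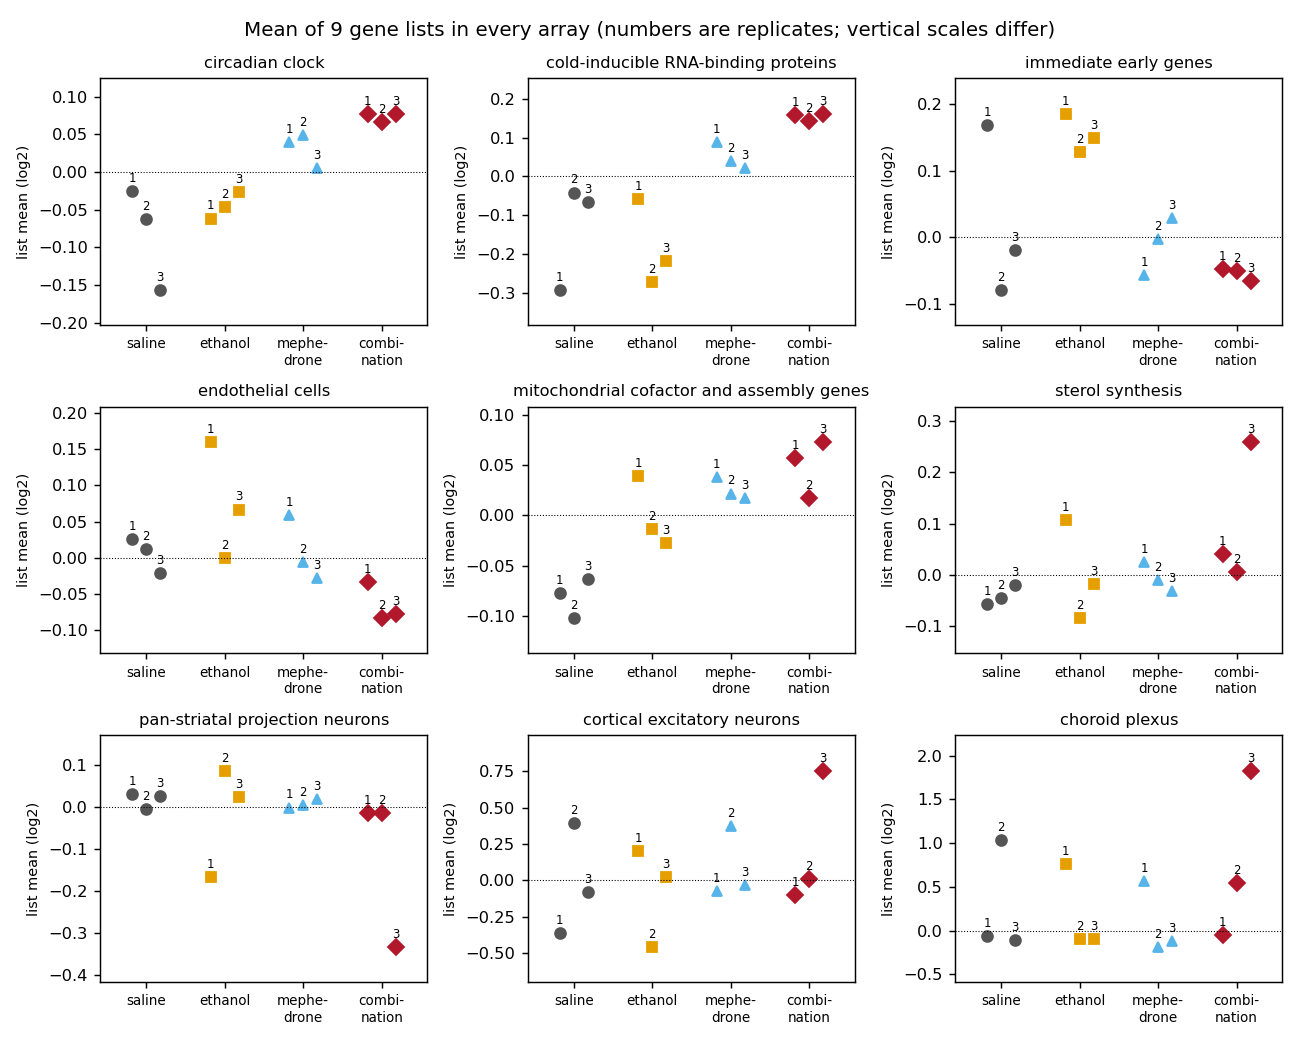
Mean log2 value of 9 gene lists (vertical axes, which differ in scale) in each of the 12 arrays, with the replicate number beside each point. For the clock, cold-inducible and mitochondrial cofactor lists the 3 combination points lie above the 3 saline points. Combination replicate 3 stands apart for choroid plexus (1.83), cortical neurons (0.76), sterol synthesis (0.26) and pan-striatal neurons (-0.33), while for immediate early genes saline replicate 1 (0.169) lies above the other saline arrays and among the ethanol arrays (0.128 to 0.186).

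Of 22 glutamate receptor genes 2 were lower at an unadjusted p under 0.05 (9.09%, beside 3.26% over all genes), or 5 without combination replicate 2 and 0 without saline replicate 1. These were Cacng2 and Cacng3, which encode auxiliary subunits of AMPA receptors (-0.16 and -0.24, adjusted p = 0.305 and 0.323). The lists of 11 GABA-A receptor subunits, 12 serotonin receptors, 12 striatal neuropeptides and 18 heat shock and unfolded protein response genes had 0 members at that p in either direction, and medians between 0.010 and 0.083. The GABA-A median of 0.064 was -0.053 without combination replicate 1 and -0.039 without saline replicate 2, and that of the heat shock list also changed sign, to -0.0062 without saline replicate 2 and -0.0014 without combination replicate 2. Among 16 genes of the antioxidant response 9 lay above 0, with a median of 0.0095. At an unadjusted p under 0.05, 1 was higher and 1 lower (6.25% each, beside 8.88% and 3.26% over all genes). Gpx1, a glutathione peroxidase, differed by -0.25 (SE 0.074, adjusted p = 0.235).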

How the data were processed

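RNA of 12 samples was hybridised to Affymetrix whole-transcript arrays, 1 array per sample. The deposited table holds log2 values made by the authors with RMA, per the submitters' processing notes, which also name the mouse build mm8, and GeneSpring GX 7.3.1 is named in the series design. The largest absolute median of a probe set over the arrays was 7e-07, so each probe set had been centred. A step that did this is not given in the sources used here, and the centring removes levels and signal over background. The number of arrays limits the precision.

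Groups came from the source labels. A model with 1 mean per group, over the whole set of 12 arrays, left 8 residual degrees of freedom (limma 3.58.1, R 4.3.3), and p-values were adjusted by Benjamini-Hochberg over 28853 probe sets. For gene lists the probe sets of a symbol were averaged and p-values adjusted over 19938 genes. Symbols came from the platform annotation, where 1621 probe sets carry several and 5443 carry none. The fit was tested on simulated data.

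Named genes are, in each direction, the 12 largest changes that passed without overlap, filled by the smallest p among differences of at least 0.3 without overlap. From each of 39 lists (523 of 571 symbols measured) members that passed or the 3 with the smallest p could be named, and further members are named for their known role, chosen after their values were seen. Members and lists were chosen with earlier results of these data known. Alternatives were array weights, robust variance, quantile normalisation, composition covariates, a replicate block, the 6 arrays alone, 1 value per symbol, probe sets with 1 symbol, a fold threshold and leaving arrays out. No deposited column of values was left unused.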

Additional observations from a re-analysis of the deposited data

How the results depend on the processing

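Of 28853 probe sets 1 was called, higher, against 13 (4 lower) with array weights, 11 (4 lower) among probe sets with 1 symbol, 2 with 1 value per symbol, 70 (59 lower) at an unadjusted p under 0.05 with at least 1.5-fold, and 0 with composition covariates, quantile normalisation, a replicate block or the 6 arrays alone. Leaving out single arrays gave 0 to 49, with 0 without combination replicate 1 or 3 or saline replicate 2, 3 without saline replicate 3, 16 without saline replicate 1 (14 lower) and 49 without combination replicate 2 (40 lower). Without saline replicate 2 and combination replicate 3 together it was 2, and without combination replicate 3 and ethanol replicate 1 together, an alternative chosen after seeing the data, 12. Named probe sets called went from 1 to 6 with weights, 2 with 1 value per symbol, 4 without combination replicate 3 and ethanol replicate 1, 0 without saline replicate 2 and combination replicate 3, 0 with covariates, quantile normalisation, the block or 6 arrays, and 0 to 5 without single arrays. List genes called went from 1 to 2 with weights, 3 without combination replicate 3 and ethanol replicate 1, 0 with covariates, quantile normalisation or 6 arrays, and 0 to 2 without single arrays. Against the single drugs, 3 named probe sets became 0 with quantile normalisation, the block or without saline replicate 2 and combination replicate 3, 1 without combination replicate 3 and ethanol replicate 1, and 0 to 3 without single arrays; the fit of 6 arrays gives no such value. Ciart was 0.894 with covariates (adjusted p = 0.0791, limma), 0.887 with 6 arrays (0.145), 0.926 with quantile normalisation (0.118), 0.887 with the replicate block (0.0709) and 0.85 without saline replicate 2 and combination replicate 3 (0.164), and 0.829 to 0.938 without single arrays. Drd3, at -0.0057, was 0.213 with weights, 0.152 with covariates, 0.172 with quantile normalisation, 0.343 without combination replicate 3 and ethanol replicate 1, 0.321 without saline replicate 2 and combination replicate 3, and -0.18 to 0.343 without single arrays. As a gene, Cmc1 had an adjusted p of 0.0562 with the replicate block. The cause was not tested. Same-numbered saline and combination arrays correlated at 0.323, -0.117 and -0.196 in their deviations, and the other pairs at -0.373 to 0.332. Deviations from a mean of 3 arrays depend on each other, so these values cannot show whether the numbers pair the samples. Apart from Drd3, 355 of 384 values of named genes under the alternatives kept their direction and side of the threshold, 8 lost the call, 21 gained it and 0 reversed. Only Ciart was called at the outset, and all 8 lost calls were its own, so the 355 are mostly values that stayed uncalled. The named genes were chosen without overlap between the groups, so leaving out arrays of these groups could not reverse them. These counts are therefore no measure of stability. Of 585 list medians 567 moved by less than the spread between replicates and 18 by more. A move within that spread can still turn the sign, and the medians of many lists changed sign under an alternative. Without combination replicate 3, that of D1 projection neurons went from -0.020 to 0.094 and that of cholinergic interneurons from -0.046 to 0.043. That of mural and leptomeningeal cells went from 0.012 to -0.029.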

Other observations

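Gene families outside the lists, chosen after their values were seen, are given by probe set at an unadjusted p under 0.05, where 7.46% of all probe sets were higher and 5.88% lower. The families of this paragraph hold only probe sets with 1 symbol, among all of which 8.96% were higher and 3.7% lower. Without combination replicate 3 these shares were 7.25% and 2.65%. Of 56 probe sets of proteasome subunits, which degrade tagged proteins, 23 were higher (41.1%) and 0 lower, with a median of 0.090, and 26.8% were higher without combination replicate 3. Of 85 for mitochondrial ribosomal proteins 21 were higher (24.7%) and 2 lower, and 15.3% were higher without combination replicate 3 or without saline replicate 2. Of 39 for complex I subunits 9 were higher (23.1%) and 1 lower, with a median of 0.029, and 15.4% were higher without saline replicate 2. Those of the small cytosolic ribosomal subunit had 1 higher and 33 of 94 lower (35.1%, or 21.3% without either of these arrays), and those of the large subunit 4 higher and 24 of 133 lower (12 without combination replicate 3). Of 1035 probe sets of olfactory receptors, which serve the nose, 126 were lower (12.2%) and 0 higher, with a median of -0.049, and 6.57% were lower without combination replicate 3.

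Of 97 probe sets whose first symbol lies on chromosome Y 85 were lower (87.6%, or 83.5% without combination replicate 3), with a median of -0.43, and of the 30 of chromosome Y with 1 symbol 19 were lower (63.3%), with a median of -0.69. For the 97, the array median was 0.017, 0.275 and 0.39 in the saline arrays and -0.34, -0.020 and -0.26 in the combination arrays. The 19 lower of the 30 were the 19 probe sets of Srsy, so that share and the median of -0.69 rest on 1 multi-copy gene. Many of the 97 belong to multi-copy families such as Srsy and share probes, so they are not independent. The genes Eif2s3y, Kdm5d, Uty, Usp9y, Zfy1 and Zfy2 of the same chromosome differed by -0.037 to 0.091, with adjusted p-values of 0.45 to 0.866. Among the 325 probe sets with over 5 symbols 53.5% were lower, or 42.5% without combination replicate 3, and 0 were higher. The cause of these differences was not tested.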
